A study of Homo sapiens with 20 samples.

Results

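The IGF binding proteins are encoded by 7 genes, IGFBP1 to IGFBP7, which were taken by symbol from a table of 21201 gene symbols, and all 7 were in it. The table held polyA-selected mRNA levels of 5 human tumour cell lines after 24 h with 1 µM G007-LK, a small molecule that blocks the tankyrases TNKS1 and TNKS2, or with 0.01% DMSO as vehicle. COLO320DM (colorectal adenocarcinoma), UO-31 (renal cell carcinoma), OVCAR-4 (ovarian adenocarcinoma) and ABC-1 (lung adenocarcinoma) had been picked for slowed growth under G007-LK, and RKO (colon carcinoma) served as the insensitive control line. Every line had 2 G007-LK and 2 DMSO libraries, labelled as biological replicates, which makes 20 libraries. ABC-1 and RKO grew in EMEM and the other lines in RPMI-1640, so medium and line cannot be told apart. Values are RPKM, read numbers scaled to gene length and to the read total of the library, so levels of different genes can be set side by side.

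The insulin-like growth factors IGF1 and IGF2 signal through the receptor tyrosine kinase IGF1R, and secreted binding proteins hold most of these ligands outside the cell. IGFBP1 to IGFBP6 bind IGFs tightly and can keep them from the receptor or release them near it after cleavage by proteases, while IGFBP7 binds them weakly. Several members also act without IGFs, through integrins or other surface receptors, and the mix of members that a tumour cell makes is known to differ between tissues.

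The genes of 4 members lie in neighbouring pairs (GRCh37 with GENCODE annotation). IGFBP2 (chr2:217497551-217529159, plus strand) and IGFBP5 (chr2:217536828-217560272, minus strand) end towards each other, with 7668 bases and no annotated gene between them. IGFBP1 (chr7:45927959-45933259, plus strand) and IGFBP3 (chr7:45951844-45961473, minus strand) face each other in the same way across 18584 bases. IGFBP4 lies at chr17:38599702-38613977, IGFBP6 at chr12:53491220-53496129 and IGFBP7 at chr4:57896939-57976551. Exons of IGFBP7 overlap exons of POLR2B and IGFBP7-AS1 on the opposite strand, and those of IGFBP5 overlap DIRC3-AS1. No source used here states whether reads were counted by strand. IGFBP7-AS1 was listed at no more than 0.474 RPKM in any library, whereas POLR2B, an RNA polymerase II subunit, was at 69.7 to 75.8 RPKM in RKO cells, where IGFBP7 was at 0 to 0.0321 RPKM.

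Promoter sequence from RefSeq (table build GRCh38.p14) was matched for 5 members, IGFBP2 to IGFBP6, and each 250-base window before the start site was found once in GRCh37. Responses to G007-LK that passed were lower for IGFBP3 and IGFBP4 and went both ways for IGFBP5 and IGFBP2. Only the windows of IGFBP3, IGFBP4 and IGFBP5 are printed. In GRCh37 they are chr7:45960872-45961121 (IGFBP3, minus strand), chr17:38599452-38599701 (IGFBP4, plus strand) and chr2:217560273-217560522 (IGFBP5, minus strand), written 5′ to 3′ along the gene with motif letters in capitals.
IGFBP3: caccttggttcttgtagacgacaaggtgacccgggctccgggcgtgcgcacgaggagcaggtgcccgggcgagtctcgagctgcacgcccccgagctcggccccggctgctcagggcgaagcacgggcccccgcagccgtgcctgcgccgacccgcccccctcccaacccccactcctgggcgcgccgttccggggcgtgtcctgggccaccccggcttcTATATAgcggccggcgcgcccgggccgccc
IGFBP4: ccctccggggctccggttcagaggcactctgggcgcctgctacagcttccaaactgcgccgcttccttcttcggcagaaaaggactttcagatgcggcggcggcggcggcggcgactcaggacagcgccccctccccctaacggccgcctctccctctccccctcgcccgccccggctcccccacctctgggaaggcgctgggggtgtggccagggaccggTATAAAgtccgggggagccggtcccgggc
IGFBP5: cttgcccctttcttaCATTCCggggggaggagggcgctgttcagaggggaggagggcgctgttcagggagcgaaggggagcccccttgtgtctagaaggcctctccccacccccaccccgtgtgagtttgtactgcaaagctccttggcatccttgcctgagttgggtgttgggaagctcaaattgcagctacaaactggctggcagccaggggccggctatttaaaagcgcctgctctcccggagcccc
The capitals mark a TATA-type match in IGFBP3 (TATATA, 30 to 25 bases before the start) and IGFBP4 (TATAAA, 29 to 24 bases before it), and in IGFBP5 the reverse complement of the TEAD core GGAATG, 235 to 230 bases before the start. Both strands were searched for TATAAA or TATATA, which 12.8% of 35116 such windows hold, for GGAATG (11.9%), for the TCF/LEF core CTTTGA (11.2%) and for the FOXO core TGTTTAC (2.98%). Of these, the IGFBP6 window held GGAATG and TGTTTAC, and the 3 IGFBP2 windows held none. A match describes the letters only.

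The 5 lines made different sets of members, as the plot of values by library shows. In DMSO libraries OVCAR-4 had the highest RPKM of 5 members, IGFBP2, IGFBP3, IGFBP4, IGFBP5 and IGFBP7, and UO-31 that of IGFBP1 and IGFBP6. Summed RPKM of a library ran between 367201 and 909199. An order of lines in RPKM can thus differ from an order by rank among genes. IGFBP3 was at 822 and 869 RPKM in OVCAR-4 and at 603 and 632 RPKM in ABC-1. Of the genes averaging 1 RPKM or more, 1.16% were higher than IGFBP3 in OVCAR-4 and 1.0% in ABC-1. For IGFBP5 these shares were 16.4% in OVCAR-4 and 11.7% in ABC-1, so by rank ABC-1 stood above OVCAR-4 for both. IGFBP3 was at 22.0 and 20.9 RPKM in UO-31, at 0.0129 and 0 RPKM in COLO320DM and at 0 in both RKO libraries. IGFBP7 was at 584 and 586 RPKM in OVCAR-4 and at 299 and 292 RPKM in UO-31, and in no library of the other 3 lines did it pass 0.491 RPKM.

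**Figure D1:**
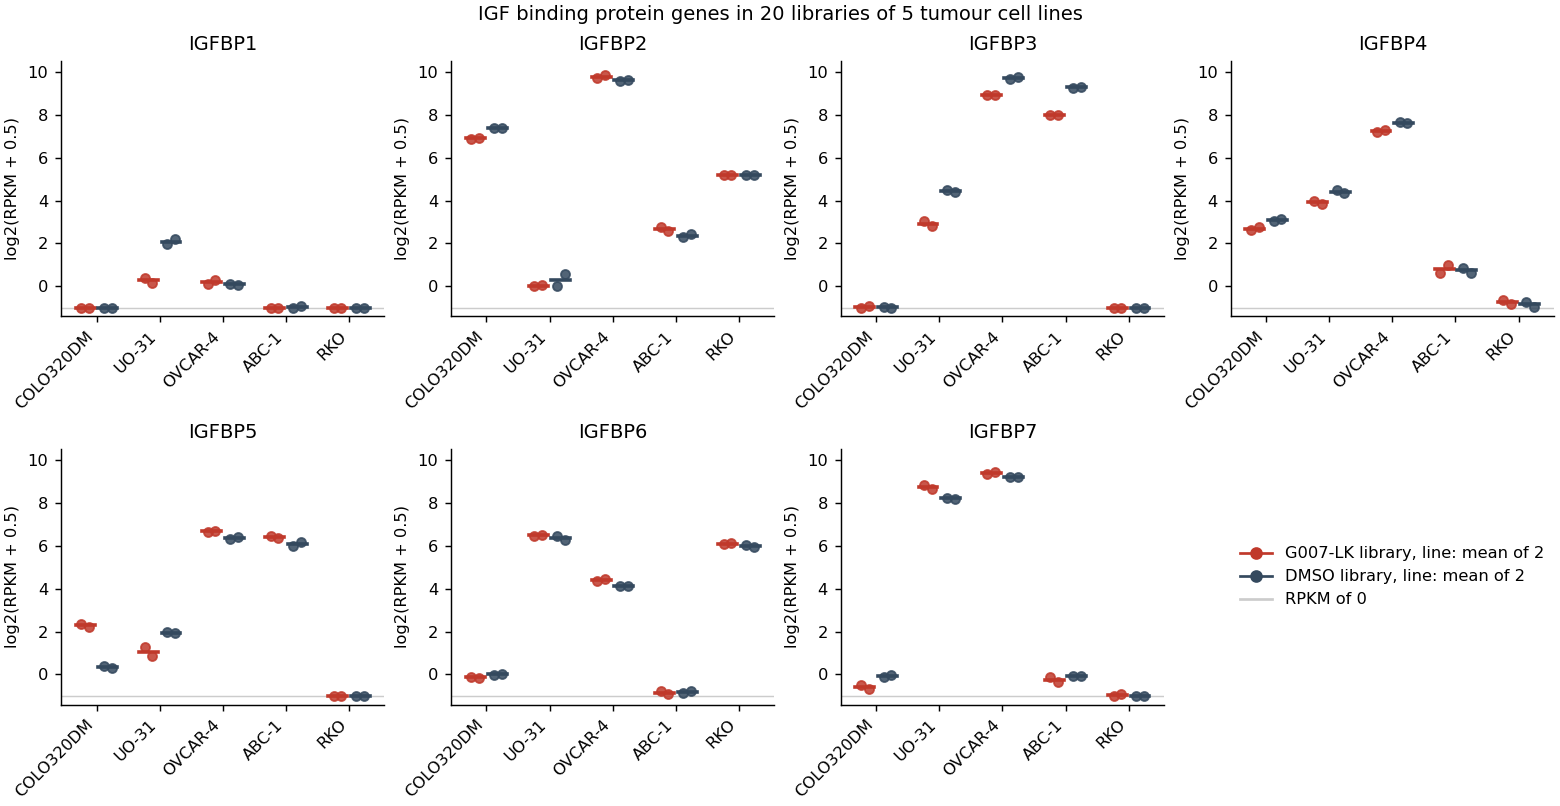
Level of each IGF binding protein gene in 20 libraries, as log2(RPKM + 0.5), by cell line, with G007-LK libraries in red left of DMSO libraries in dark blue; short lines are means of 2 libraries and the grey line marks a value of 0. IGFBP3 sits lower in G007-LK libraries of ABC-1, OVCAR-4 and UO-31 and on the zero line in COLO320DM and RKO, while IGFBP5 sits higher in COLO320DM and lower in UO-31.

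IGFBP2 followed another order, OVCAR-4 (766 and 793 RPKM), COLO320DM (165 in both libraries), RKO (35.7 and 35.8), ABC-1 (4.36 and 4.91) and UO-31 (0.512 and 0.983). IGFBP6 was highest in UO-31 (88.0 and 75.7 RPKM) and RKO (64.8 and 61.3 RPKM), followed by OVCAR-4 (16.8 and 17.2 RPKM), and reached no more than 0.529 RPKM in COLO320DM and 0.0873 RPKM in ABC-1. The same-line libraries stood close together beside these gaps, and neighbouring lines in an order did not overlap. The exceptions were the lines near 0 for IGFBP1 (ABC-1, COLO320DM and RKO) and for IGFBP3 (COLO320DM and RKO), and COLO320DM beside ABC-1 for IGFBP7. In a limma F test over the 10 DMSO libraries the 6 members averaging 1 RPKM or more differed among lines, with adjusted p between 2.3e-17 (IGFBP3) and 9.8e-15 (IGFBP2), but 99.5% of all genes did so too. Between pairs of lines, 83.5% of gene and pair combinations differed, and the pairs of these 6 members that did not were COLO320DM and RKO for IGFBP3 (adjusted p = 0.818) and COLO320DM and ABC-1 for IGFBP7 (adjusted p = 1).

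Depth can be compared although the files hold no counts, because low RPKM values step by single reads. The relative read total ran from 0.475 to 1.17 of the median library, with the 4 OVCAR-4 libraries at 0.475 to 0.534. Replicates differed as a whole in UO-31 with G007-LK (median of all genes -0.285, replicate 2 minus 1, log2), in COLO320DM with DMSO (0.168) and in ABC-1 with DMSO (0.114), so responses in these lines are also given without single libraries where that ends a call. Of 5 listed intestinal markers 3 averaged 1 RPKM or more in COLO320DM and 1 in RKO, which was CDX2 (7.13 RPKM). In COLO320DM CDX2 was at 523 and 516 RPKM in G007-LK and 732 and 763 RPKM in DMSO libraries, with CDX1 and VIL1 near 0. Of 4 kidney markers 3 reached that mean in UO-31, with PAX8 at 70.8 RPKM. Of 5 ovarian and Müllerian markers 4 reached it in OVCAR-4 (SOX17 at 176, PAX8 at 85.0, EMX2 at 56.2 and MUC16 at 10.2 RPKM), while WT1 was at no more than 0.138 RPKM. Of 4 lung markers only NKX2-1 reached it in ABC-1, with 1.71 and 1.88 RPKM in G007-LK and 4.15 and 4.06 RPKM in DMSO libraries, and SFTPB, NAPSA and SFTA3 were near 0. Of other cell types, blood markers summed to 356 and 358 RPKM in G007-LK and 342 and 344 RPKM in DMSO libraries of RKO, nearly all of it CD68, with PTPRC at 0. AXIN2, a feedback target of WNT signalling, was at 52.8 and 51.3 RPKM in G007-LK and at 116 and 134 RPKM in DMSO libraries of COLO320DM.

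Each line was then asked which members G007-LK moved within 24 h. The response of a gene is its difference between G007-LK and DMSO libraries in log2(RPKM + 0.5), which understates changes of low genes. It was tested with limma within each line over genes averaging 1 RPKM or more, and called at an adjusted p under 0.05. COLO320DM had 3 members to test, of which 1 rose and 1 fell, against 7.7% of all genes higher and 11.6% lower. In UO-31, 1 of 6 rose and 3 fell (4.79% and 8.63% of all genes). IGFBP5 in COLO320DM and IGFBP1 in UO-31 reached that mean only through the treatment in which they were higher. The counts of these 2 lines can therefore not be weighed against the shares. In OVCAR-4, 4 of 6 rose and 2 fell (12.6% and 39%), and in ABC-1, 2 of 4 rose and 1 fell (16.6% and 41.2%). Neither of the 2 members tested in RKO passed with limma, where 1.36% of all genes were higher and 2.75% lower. Without adjustment 1 of the 2, IGFBP6, was under 0.05. The remaining members lay under the mean of 1 RPKM in the line concerned. Fewer cells that express a member and less of its RNA per cell cannot be told apart in bulk libraries.

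**Figure D2:**
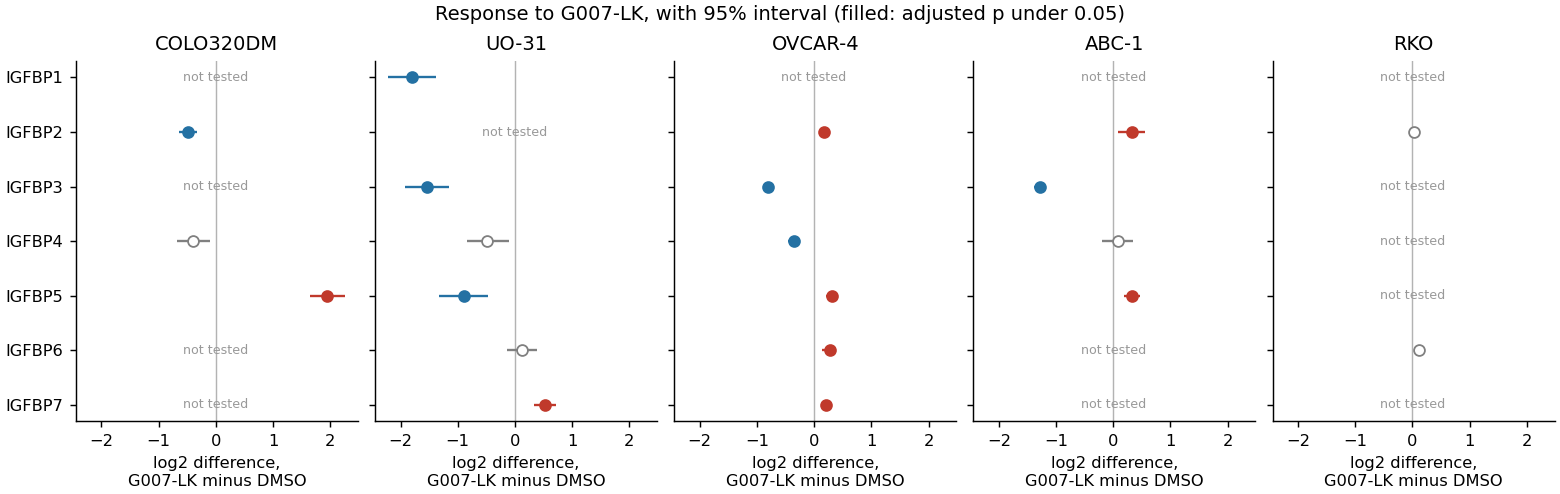
Response of each member in each line as the log2 difference, G007-LK minus DMSO, with its 95% interval from limma; filled points passed an adjusted p of 0.05 (red higher, blue lower), open points did not, and members under a mean of 1 RPKM are marked as not tested. IGFBP3 lies left of zero in all 3 lines with a value (-1.54, -0.80 and -1.28), IGFBP5 lies right of zero in COLO320DM, OVCAR-4 and ABC-1 and left of it in UO-31, and both RKO points lie near zero.

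IGFBP3 and IGFBP5 are the members that carry IGFs in a ternary complex with the acid-labile subunit, and IGFBP3 is the main carrier in blood. IGFBP3 fell in each of the 3 lines that expressed it. In ABC-1 it was at 257 and 250 RPKM in G007-LK libraries, against 603 and 632 RPKM in DMSO libraries, a response of -1.28 (SE 0.05, adjusted p = 1.4e-132). The p depends on a pooled spread over many genes, and after rescaling the libraries by median ratios the response was -1.16 (adjusted p = 6.8e-10). In UO-31 IGFBP3 was at 7.69 and 6.50 RPKM with G007-LK, against 22.0 and 20.9 RPKM with DMSO, a response of -1.54 (SE 0.20, adjusted p = 3.9e-12). Without DMSO replicate 1 or replicate 2 the UO-31 response was -1.50 (adjusted p = 0.0774) or -1.57 (adjusted p = 0.0506). In OVCAR-4 it was at 485 RPKM in both G007-LK libraries, against 822 and 869 RPKM in DMSO libraries, a response of -0.80 (SE 0.03, adjusted p = 5.9e-09). The 2 treatments did not overlap in any of the 3 lines. COLO320DM and RKO gave no response to test, since IGFBP3 was at no more than 0.0264 RPKM in COLO320DM and at 0 in RKO.

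IGFBP5, which also binds extracellular matrix, moved in all 4 sensitive lines but not in 1 direction. In COLO320DM it was at 4.66 and 4.18 RPKM in G007-LK libraries, against 0.824 and 0.717 RPKM in DMSO libraries, a ratio of 5.74 and a response of 1.95 (SE 0.15, adjusted p = 3.7e-08). It passed the level filter there through its G007-LK libraries, and in a fit with no filter the adjusted p was 8.7e-04. In UO-31 it was at 1.92 and 1.29 RPKM with G007-LK, against 3.41 and 3.32 RPKM with DMSO, a response of -0.89 (SE 0.22, adjusted p = 7.8e-04). That call was lost without DMSO replicate 1 (-0.88, adjusted p = 0.749) or replicate 2 (-0.91, adjusted p = 0.728). OVCAR-4 and ABC-1 held IGFBP5 at higher levels and showed smaller rises. OVCAR-4 had 99.2 and 103 RPKM with G007-LK, against 78.0 and 84.4 RPKM with DMSO (0.32, SE 0.05, adjusted p = 1.3e-04). ABC-1 had 87.6 and 80.9 RPKM with G007-LK, against 62.8 and 71.4 RPKM with DMSO (0.33, SE 0.07, adjusted p = 1.1e-05), and without G007-LK replicate 1 the ABC-1 response was 0.27 (adjusted p = 0.0618). In ABC-1 and OVCAR-4 the ternary carriers moved in opposite directions in the same libraries, IGFBP3 lower and IGFBP5 higher.

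IGFBP1 and IGFBP2 are the small carriers with an integrin-binding RGD sequence, and IGFBP1 is known as a liver gene repressed by insulin. IGFBP1 was above 1 RPKM only in DMSO libraries of UO-31. There it was at 0.802 and 0.628 RPKM in G007-LK libraries, against 3.41 and 4.07 RPKM in DMSO libraries, a ratio of 0.191 and a response of -1.80 (SE 0.21, adjusted p = 2.4e-14). It passed the filter through its DMSO libraries, and with no filter the adjusted p was 0.00234. In OVCAR-4 IGFBP1 stayed low, at 0.585 and 0.717 RPKM with G007-LK and 0.575 and 0.557 RPKM with DMSO, and it was at or near 0 in the other 3 lines.

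IGFBP2 fell in COLO320DM, where it was the leading member, and rose in OVCAR-4 and ABC-1. COLO320DM libraries held 115 and 122 RPKM with G007-LK, against 165 RPKM in both DMSO libraries, a response of -0.48 (SE 0.08, adjusted p = 2.4e-04). OVCAR-4 held 850 and 910 RPKM with G007-LK, against 766 and 793 RPKM with DMSO (0.18, SE 0.04, adjusted p = 0.00162), and without DMSO replicate 1 the response was 0.15 (adjusted p = 0.0518). ABC-1 held 6.22 and 5.58 RPKM with G007-LK, against 4.36 and 4.91 RPKM with DMSO (0.32, SE 0.12, adjusted p = 0.0163). The ABC-1 call ended with the replicate number as a block (adjusted p = 0.113), with no filter (0.0526), without DMSO replicate 1 (response 0.24, adjusted p = 0.106), without G007-LK replicate 1 (0.25, adjusted p = 0.306) and without G007-LK replicate 2 (0.39, adjusted p = 0.086). In RKO the 4 libraries lay between 35.7 and 36.3 RPKM (response 0.02, 95% interval -0.05 to 0.08, adjusted p = 0.779). UO-31 held 0.498 and 0.551 RPKM with G007-LK and 0.512 and 0.983 RPKM with DMSO, which overlapped.

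IGFBP4, the substrate of the protease PAPP-A, was lower in G007-LK than in DMSO libraries of 3 lines without overlap. It fell in OVCAR-4, with 148 and 157 RPKM in G007-LK libraries, against 199 and 194 RPKM in DMSO libraries (-0.36, SE 0.04, adjusted p = 1.4e-05). COLO320DM had 5.67 and 6.26 RPKM with G007-LK and 7.68 and 8.25 RPKM with DMSO (-0.39, SE 0.14), and UO-31 had 15.4 and 14.0 RPKM with G007-LK and 21.7 and 19.6 RPKM with DMSO (-0.48, SE 0.19). The differences in COLO320DM (adjusted p = 0.059) and UO-31 (adjusted p = 0.0684) missed the threshold on the deposited scale and passed it after median-ratio rescaling (0.0103 in COLO320DM and 0.00794 in UO-31). In ABC-1, with 1.06 and 1.49 RPKM in G007-LK and 1.34 and 1.03 RPKM in DMSO libraries, the treatments overlapped (0.08, 95% interval -0.19 to 0.34, adjusted p = 0.649).

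IGFBP6 prefers IGF2 to IGF1, and IGFBP7 is a matrix-associated member with weak IGF affinity. IGFBP6 rose in OVCAR-4, with 20.1 and 21.0 RPKM in G007-LK libraries, against 16.8 and 17.2 RPKM in DMSO libraries (0.27, SE 0.06, adjusted p = 0.00186). In UO-31 its libraries overlapped, at 86.5 and 90.9 RPKM with G007-LK and 88.0 and 75.7 RPKM with DMSO (0.12, 95% interval -0.14 to 0.38, adjusted p = 0.664). RKO had 66.9 and 69.5 RPKM with G007-LK and 64.8 and 61.3 RPKM with DMSO, a difference of 0.11 (SE 0.03) that missed the threshold (adjusted p = 0.085) and passed it among genes averaging 5 RPKM or more (adjusted p = 0.0451). IGFBP7 rose in both lines that expressed it. In COLO320DM, where it lay under the filter, it was at 0.217 and 0.123 RPKM with G007-LK and 0.42 and 0.491 RPKM with DMSO. A limma fit with no filter called it lower there (-0.52, adjusted p = 0.0414), at values near 0. UO-31 held 451 and 397 RPKM with G007-LK, against 299 and 292 RPKM with DMSO (0.52, SE 0.10, adjusted p = 4.7e-06), a call lost without DMSO replicate 1 (0.53, adjusted p = 0.286) or replicate 2 (0.50, adjusted p = 0.421). OVCAR-4 held 655 and 690 RPKM with G007-LK, against 584 and 586 RPKM with DMSO (0.20, SE 0.03, adjusted p = 2.7e-04). POLR2B, which overlaps IGFBP7 on the other strand, was at 58.5 and 44.5 RPKM in G007-LK and 65.7 and 64.3 RPKM in DMSO libraries of UO-31, lower with G007-LK where IGFBP7 was higher. In the same libraries 6 fibroblast and stroma markers summed to 121 to 152 RPKM with G007-LK and 107 to 110 RPKM with DMSO in UO-31, mostly COL1A1, with COL3A1 at 0. In OVCAR-4 they summed to 17.3 to 17.9 RPKM with G007-LK and 13.0 to 14.1 RPKM with DMSO, with DCN at 0. In each of these lines 3 of the 6 averaged 1 RPKM or more, and their part in the IGFBP7 result was not tested.

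Over all genes tested, the median response was -0.11 in OVCAR-4 and -0.14 in ABC-1, against -0.04 in UO-31, -0.02 in RKO and -0.01 in COLO320DM. Median-ratio rescaling took these medians to -0.01 in OVCAR-4 and -0.02 in ABC-1. It left each call of a member in these 2 lines in its direction, with IGFBP2 at 0.28 and 0.43, IGFBP5 at 0.42 and 0.45 and IGFBP3 at -0.70 and -1.16 in OVCAR-4 and ABC-1, in that order. In OVCAR-4 the rescaled responses of IGFBP4, IGFBP6 and IGFBP7 were -0.26, 0.37 and 0.30.

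The summed level of the 7 genes shows what these responses added up to in each line. In ABC-1 the sum was 353 and 338 RPKM in G007-LK libraries, against 672 and 710 RPKM in DMSO libraries, with IGFBP3 at 73.5% of it with G007-LK and 89.3% with DMSO. In UO-31 the sum was 564 and 511 RPKM with G007-LK, against 438 and 417 RPKM with DMSO, and IGFBP7 made up 78.8% of it with G007-LK and 69.2% with DMSO. COLO320DM summed to 126 and 133 RPKM with G007-LK, against 175 RPKM in both DMSO libraries, nearly all of it IGFBP2. In OVCAR-4 the sums were 2260 and 2370 RPKM with G007-LK, against 2470 and 2540 RPKM with DMSO. There IGFBP3 was the largest share with DMSO (33.8%) and the third with G007-LK (21.0%), behind IGFBP2 (38.0%) and IGFBP7 (29.1%). RKO summed to 103 and 106 RPKM with G007-LK and 101 and 97.1 RPKM with DMSO, made up of IGFBP6 and IGFBP2. The sums were not tested. On the deposited scale treatments did not overlap in any line. After median-ratio rescaling, tried after the data were seen, the OVCAR-4 sums overlapped, at 2360 and 2430 RPKM with G007-LK and 2400 and 2420 RPKM with DMSO, and those of the other 4 lines did not.

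**Figure D3:**
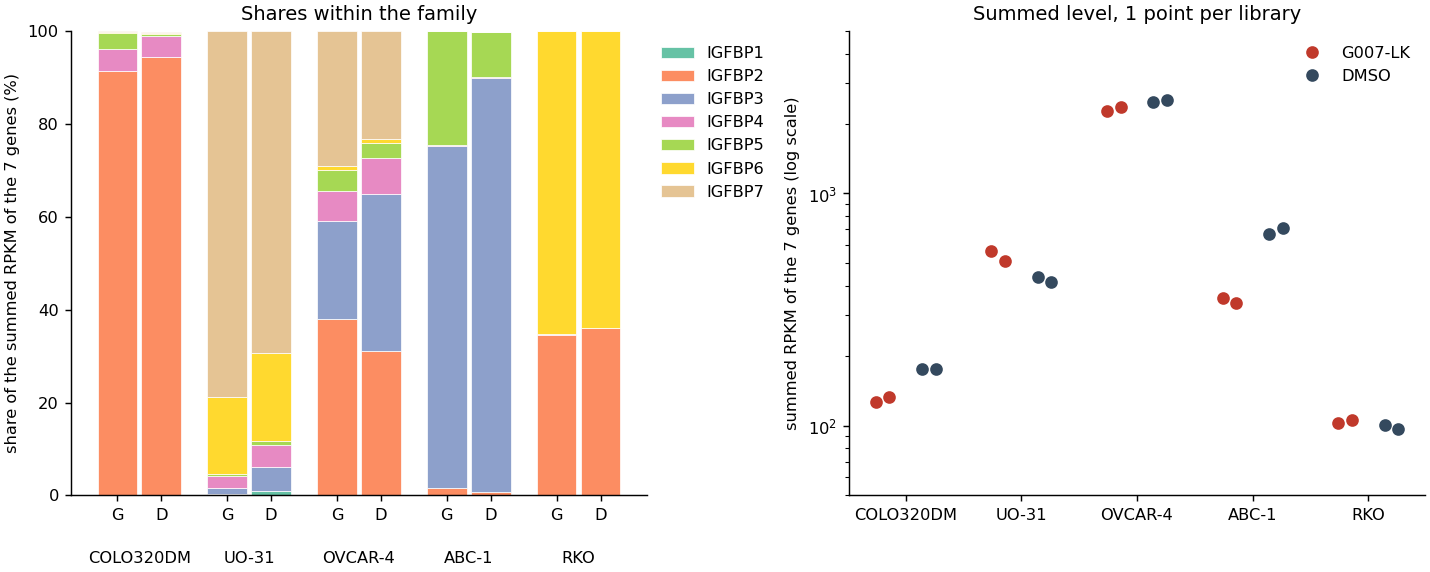
Left, share of the summed RPKM of the 7 genes held by each gene (%), as means of 2 libraries, for G007-LK (G) and DMSO (D) in each line; right, the summed RPKM of the 7 genes on a log axis, 1 point per library. IGFBP3 takes 73.5% of the ABC-1 sum with G007-LK and 89.3% with DMSO, and the ABC-1 sum falls to 353 and 338 RPKM with G007-LK, against 672 and 710 RPKM with DMSO.

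The responses of the sensitive lines were set against that of RKO by a treatment-by-line interaction, fitted to 8 libraries. IGFBP1 and IGFBP3 were at 0 in RKO and IGFBP4, IGFBP5 and IGFBP7 were at no more than 0.145 RPKM there, so for these members the comparison largely repeats the line's own change. IGFBP5 in COLO320DM and both IGFBP1 and IGFBP5 in UO-31 also passed the level filter through the treatment in which they were higher. Members past the threshold numbered 2 in COLO320DM (11.6% of all genes), 3 in UO-31 (6.16%), 4 in OVCAR-4 (35.4%) and 3 in ABC-1 (46.8%). All members were tested in UO-31 and all but IGFBP1 in OVCAR-4. In COLO320DM IGFBP2, IGFBP4, IGFBP5 and IGFBP6 were tested, and in ABC-1 IGFBP2, IGFBP3, IGFBP5 and IGFBP6. Because of the level filter, the COLO320DM and UO-31 counts cannot be weighed against the shares. IGFBP4 passed the threshold in OVCAR-4 (-0.47, adjusted p = 0.014) but missed it after median-ratio rescaling (-0.40, adjusted p = 0.0751). The same rescaling took IGFBP4 past the threshold in COLO320DM (-0.50, adjusted p = 0.041) and UO-31 (-0.55, adjusted p = 0.0409). It did so for IGFBP7 in UO-31 (0.51, adjusted p = 0.00529) and OVCAR-4 (0.25, adjusted p = 0.0243). IGFBP2 and IGFBP6 had a level in RKO to respond from. For IGFBP6 no difference from RKO passed. It was -0.26 in COLO320DM (adjusted p = 0.192), 0.01 in UO-31 (0.991), 0.15 in OVCAR-4 (0.0642) and -0.13 in ABC-1 (0.385). After median-ratio rescaling those in COLO320DM (-0.28, adjusted p = 0.0297) and OVCAR-4 (0.24, adjusted p = 0.00881) passed. IGFBP6 was under 1 RPKM in COLO320DM and ABC-1. For IGFBP2 the difference from RKO was -0.50 in COLO320DM (adjusted p = 0.0023), 0.16 in OVCAR-4 (adjusted p = 0.0279) and 0.30 in ABC-1 (adjusted p = 0.0277). The OVCAR-4 and ABC-1 differences in IGFBP2 missed the threshold when any of the 4 RKO libraries was left out (adjusted p between 0.056 and 0.0959).

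Among the sensitive lines, 13 pairs in which a member had been called in both lines were compared in 1 fit over 16 libraries, a test chosen after the responses had been seen. Of all gene and pair combinations in this fit, 14.5% passed. The responses differed in 9 of the 13 pairs. The pairs were kept on calls from the same libraries, so this count cannot be weighed against that share. For IGFBP5 the response in COLO320DM was above that in UO-31 by 2.85 (SE 0.18, adjusted p = 7.9e-07), and that in UO-31 was below that in OVCAR-4 (-1.21, adjusted p = 4.6e-04) and ABC-1 (-1.22, adjusted p = 4.3e-04). The IGFBP5 responses in OVCAR-4 and ABC-1 differed by -0.01 (95% interval -0.39 to 0.37, adjusted p = 0.976). For IGFBP2 the response in COLO320DM was below those in OVCAR-4 (-0.66, adjusted p = 0.0301) and ABC-1 (-0.80, adjusted p = 0.0106). IGFBP3 fell by more in UO-31 than in OVCAR-4 (-0.73, adjusted p = 5.9e-04) and by more in ABC-1 than in OVCAR-4 (0.48 for OVCAR-4 minus ABC-1, adjusted p = 0.0102). Between UO-31 and ABC-1 the IGFBP3 responses differed by -0.25 (95% interval -0.49 to -0.02, adjusted p = 0.149). After median-ratio rescaling that difference was -0.39 and passed the threshold (adjusted p = 7.8e-04).

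The ligands, receptors and partners of the binding proteins were read in the same fits. Of the listed ligands and receptors 6 of 7 were in the table, and ABC-1 was the one line with a ligand above a mean of 1 RPKM. IGF2 was at 105 and 85.1 RPKM in its G007-LK libraries, against 43.9 and 53.7 RPKM in its DMSO libraries, a rise of 0.95 (SE 0.07, adjusted p = 5.6e-36; 1.07 after rescaling, adjusted p = 3.2e-07). IGF2 rose in the line where IGFBP3 fell by 1.28. IGF1R, the signalling receptor, averaged between 2.56 and 11.2 RPKM in every group and its 5 responses of -0.16 to 0.07 all missed the threshold. IGF2R, which clears IGF2, rose by 0.41 in COLO320DM (adjusted p = 0.0382).

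Several proteases that cut binding proteins changed. CTSD, the lysosomal protease cathepsin D, rose in all 5 lines, by 0.97 in UO-31 (adjusted p = 7.7e-28), 0.38 in ABC-1, 0.32 in COLO320DM, 0.27 in OVCAR-4 and 0.10 in RKO (adjusted p = 0.0447). HTRA1, a secreted serine protease that can cleave IGFBP5, was at 59.1 and 52.0 RPKM in G007-LK libraries, against 23.0 and 21.2 RPKM in DMSO libraries of UO-31 (1.31, SE 0.16, adjusted p = 6.5e-14). In ABC-1 HTRA1 fell, with 4.37 and 3.98 RPKM with G007-LK against 8.87 and 8.10 RPKM with DMSO (-0.94, adjusted p = 1.6e-14). STC2, an inhibitor of PAPP-A, fell in UO-31 (-0.88), OVCAR-4 (-0.32) and ABC-1 (-0.97). PAPPA, the gene of PAPP-A, averaged 0.992, 0.164 and 0.0115 RPKM in these lines and was not tested there. It rose in COLO320DM (0.69, adjusted p = 0.00652) at a mean of 2.11 RPKM, and was named after its values were seen. STC1 fell in OVCAR-4 (-0.49) and ABC-1 (-0.48) and rose in RKO (0.17, adjusted p = 0.00177), where it averaged 407 RPKM. MMP7, a matrix protease, rose by 0.39 in OVCAR-4, where it averaged 906 RPKM. Of 10 listed proteases and their partners the number tested was 3 in COLO320DM, 6 in UO-31, 5 in OVCAR-4, 4 in ABC-1 and 2 in RKO. The median response of the list was 0.37, 0.32, 0.07, -0.71 and 0.14 in these lines, beside medians over all genes of -0.01, -0.04, -0.11, -0.14 and -0.02.

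**Figure D4:**
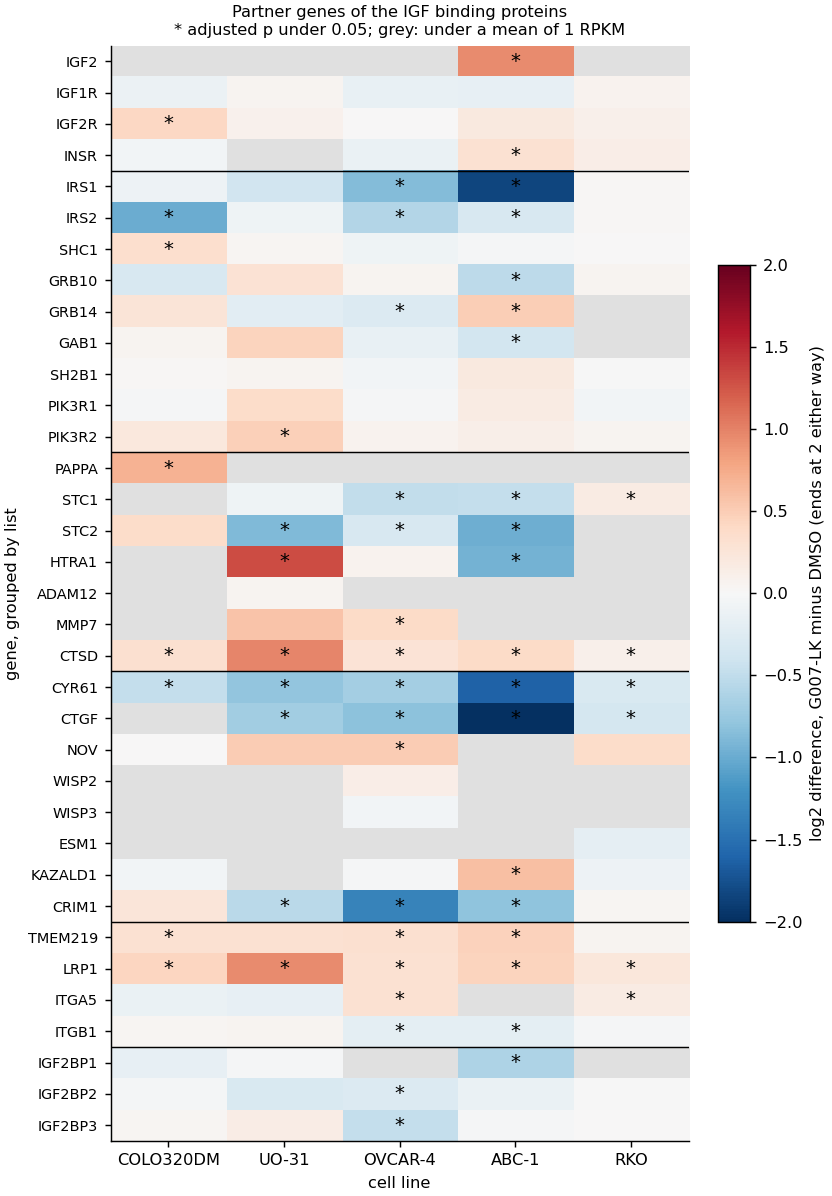
Response (log2 difference, G007-LK minus DMSO) of the listed partner genes that averaged 1 RPKM or more in 1 line or more, by cell line; asterisks mark an adjusted p under 0.05, grey marks genes under the mean, the colour scale ends at 2 in either direction, and rows are grouped by list. CTSD rises in all 5 lines, CYR61 and CTGF are lowest in ABC-1 (-1.62 and -2.11), and IGF2 has a value in ABC-1 alone (0.95).

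CYR61, CTGF and CRIM1, which share the amino-terminal IGFBP-type domain, fell in UO-31, OVCAR-4 and in ABC-1. Of the 12 listed genes with that domain, 3 of 4 tested fell in UO-31, 3 of 7 fell and 1 rose in OVCAR-4, and 3 of 4 fell and 1 rose in ABC-1, with list medians of -0.61, -0.05 and -1.21 in these lines. Of all genes 8.63% were lower in UO-31, 39% in OVCAR-4 and 41.2% in ABC-1, so the OVCAR-4 count was near that share. The genes that fell there were these 3. CYR61 and CTGF, matricellular genes known as YAP targets, fell by 0.79 and 0.69 in UO-31, by 0.68 and 0.82 in OVCAR-4 and by 1.62 and 2.11 in ABC-1. CRIM1 fell by 0.54 in UO-31, 1.33 in OVCAR-4 and 0.81 in ABC-1. In COLO320DM 1 of 4 tested fell (list median -0.03, 11.6% of all genes lower) and in RKO 2 of 6 fell (list median -0.14, 2.75% of all genes lower), with CYR61 in RKO at -0.31 (adjusted p = 3.4e-04). The risen genes were NOV in OVCAR-4 (0.51) and KAZALD1 in ABC-1 (0.60).

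Of the 5 listed receptors to which binding proteins attach, LRP1, a scavenger receptor that binds IGFBP3, rose in COLO320DM (0.43), UO-31 (0.94), OVCAR-4 (0.30) and ABC-1 (0.44). LRP1 also passed in RKO, at 4.99 and 4.93 RPKM with G007-LK against 4.22 and 4.06 RPKM with DMSO (0.23, adjusted p = 0.0463), a gene named there after its values were seen. TMEM219, reported as an IGFBP3 receptor, rose in COLO320DM (0.30), OVCAR-4 (0.32) and ABC-1 (0.46). It missed the threshold in UO-31 (0.30, adjusted p = 0.074). ITGA5 rose in OVCAR-4 (0.30) and RKO (0.16). ITGB1 fell in OVCAR-4 (-0.19) and ABC-1 (-0.19), and missed the threshold in ABC-1 after median-ratio rescaling (adjusted p = 0.399). Of the receptors tested, 2 of 4 rose in COLO320DM, 1 of 4 in UO-31 and 3 of 4 in OVCAR-4. In ABC-1 2 of 3 rose, and in RKO 2 of 4. The shares of all genes higher were 7.7%, 4.79%, 12.6%, 16.6% and 1.36% in that order. Of 10 listed adaptors below IGF1R, 9 were tested in each sensitive line. In COLO320DM 1 rose and 1 fell, in UO-31 1 rose, in OVCAR-4 3 fell, and in ABC-1 1 rose and 4 fell. Of all genes 11.6% were lower in COLO320DM, 39% in OVCAR-4 and 41.2% in ABC-1, so the counts of falls were near those shares. The rises were those of SHC1 in COLO320DM (0.33), PIK3R2 in UO-31 (0.48) and GRB14 in ABC-1 (0.49). IRS2 fell in COLO320DM (-0.99, SE 0.14, adjusted p = 8.6e-05) and OVCAR-4 (-0.58, SE 0.08, adjusted p = 5.1e-05), and IRS1 fell in OVCAR-4 (-0.87, adjusted p = 9.4e-06). Both also fell in ABC-1, where they averaged under 5 RPKM and were named after their values were seen. IRS1 was at 0.671 and 0.527 RPKM there with G007-LK, against 3.22 and 3.57 RPKM with DMSO (-1.83, adjusted p = 1.2e-40), and the IRS2 response of -0.32 (adjusted p = 0.0318) missed the threshold after median-ratio rescaling (-0.23, adjusted p = 0.0665). Of 3 listed IGF2 mRNA-binding proteins, both of the 2 tested in OVCAR-4 fell, IGF2BP3 by 0.47 and IGF2BP2 by 0.27. In ABC-1 1 of 3 tested fell, IGF2BP1 by 0.61. Of all genes 39% were lower in OVCAR-4 and 41.2% in ABC-1. On the deposited scale none of this list passed in the other lines.

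The genes whose levels followed a member most closely were sought over the 20 libraries among 11125 genes averaging 5 RPKM or more in 1 line or more. These r values (Pearson, log2 scale) mostly describe the 5 lines, since the 4 libraries of a line share its cells. IGFBP7 was closest to CD74 (0.9985) and RAB34 (0.998). IGFBP3 was closest to SH2D3A (0.9909), TSPAN2 (0.989) and SLC44A2 (0.9874), and IGFBP5 to PPA2 (0.9819), PDE4DIP (0.9797) and MAGEH1 (0.9779). IGFBP4 was closest to CABYR (0.9889), IGFBP6 to TCIRG1 (0.9897) and IGFBP2 to CCDC88C (0.981). Among the members themselves IGFBP3 and IGFBP5 were the closest pair (0.93), although their responses ran in opposite directions in OVCAR-4 and ABC-1.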

How the data were processed

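Poly(A)-selected RNA from 5 tumour cell lines was sequenced on an Illumina HiSeq 2000. According to the methods, the authors aligned reads to the hg19 gene set with SOAPaligner/SOAP2, allowing at most 2 mismatches, and deposited 1 RPKM value per gene and library without pooling replicates. No source used here names the version of SOAPaligner. Files of the authors' own comparisons (log2 ratios and NOISeq probabilities) were not used. Of 21610 entries, 8 had no symbol (together up to 0.00134% of a library) and were left out, missing values were set to 0, and 371 symbols listed more than once were joined (in each, 1 entry at most held values), which left 21201. Sums of RPKM ran between 367201 and 909199. Since RPKM are not counts, no intervals for counting error are given. The relative read total was the most frequent ratio of low values of the same gene in different libraries.

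RPKM were tested as log2(RPKM + 0.5) in limma 3.58.1 (trend and robust, R 4.3.3, statmod 1.5.0), two-sided, over genes averaging 1 RPKM or more across the libraries fitted, with Benjamini-Hochberg adjustment over all of them and a threshold of 0.05. The fits were G007-LK against DMSO in the 4 libraries of a line, its interaction with line against RKO (8 libraries) and an F test over the 10 DMSO libraries. The functions were tested on simulated data. With 2 libraries a group, p-values lean on the spread shared across genes. Alternatives were pseudocounts of 0.1 and 1, no filter or a mean of 5, median-ratio, equal-sum and quantile scaling, 1 fit over all libraries, the replicate number as a block, and each library left out. The 7 members were named in full. From each partner list up to 4 called genes a line were named, by size of response, at a mean of at least 5 RPKM. For genes alike, the 3 highest r were taken, of which 1 is printed for 3 members. Members and lists were chosen with earlier results of these data known. Figures were drawn with matplotlib 3.10.9. A gene close to IGFBP7 in level is not reported here.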

Additional observations from a re-analysis of the deposited data

Results flagged for a closer look

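The responses below differed between cell lines by a test of the difference itself (limma, adjusted over all genes), and all are log2 differences in response. For IGFBP1, IGFBP3, IGFBP4 and IGFBP5, which were at no more than 0.145 RPKM in RKO, the value against RKO largely repeats the response of the tested line and does not compare it with a response in RKO. Against RKO, IGFBP5 differed by 1.95 in COLO320DM (adjusted p = 2.0e-05), -0.89 in UO-31 (adjusted p = 0.0317), 0.32 in OVCAR-4 (adjusted p = 0.0148) and 0.33 in ABC-1 (adjusted p = 0.0354). IGFBP3 differed from RKO by -1.54 in UO-31 (adjusted p = 0.0021), -0.80 in OVCAR-4 (adjusted p = 3.5e-05) and -1.28 in ABC-1 (adjusted p = 1.8e-07). IGFBP2 differed from RKO by -0.50 in COLO320DM, 0.16 in OVCAR-4 and 0.30 in ABC-1. IGFBP1 differed by -1.80 in UO-31 (adjusted p = 0.00116) and IGFBP4 by -0.47 in OVCAR-4 (adjusted p = 0.014), which was -0.40 (adjusted p = 0.0751) after median-ratio rescaling. IGFBP5 in COLO320DM averaged 1 RPKM or more through its G007-LK libraries alone. In the fit of UO-31 with RKO, IGFBP1 and IGFBP5 passed the level filter through the UO-31 DMSO libraries, in which they were higher.

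Between sensitive lines, the IGFBP5 response in COLO320DM exceeded that in UO-31 by 2.85, in OVCAR-4 by 1.64 (adjusted p = 4.4e-05) and in ABC-1 by 1.62 (adjusted p = 4.6e-05), and UO-31 stood at -1.21 against OVCAR-4 and -1.22 against ABC-1. For IGFBP2, COLO320DM stood at -0.66 against OVCAR-4 and -0.80 against ABC-1. For IGFBP3, UO-31 stood at -0.73 against OVCAR-4, and OVCAR-4 at 0.48 against ABC-1. These pairs of lines were picked because the member had been called in both lines in the same libraries.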

How the results depend on the processing

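No response of a member past the threshold changed sign under the alternatives run. Of those that missed it, IGFBP4 in ABC-1 (0.08) was -0.06 without DMSO replicate 2 and -0.10 without G007-LK replicate 2, and IGFBP6 in UO-31 against RKO (0.01) lay between -0.10 and -0.02 in 4 fits without 1 library. The number of members called, with main values of 2 for COLO320DM, 4 for UO-31, 6 for OVCAR-4, 3 for ABC-1 and 0 for RKO, moved to 1 and 2 in COLO320DM and UO-31 when a mean of at least 5 RPKM was required, which removes low members, and to 1 in RKO, where IGFBP6 then passed (adjusted p = 0.0451) and the calls over all genes were 704 against 432. It moved to 2 in OVCAR-4 in 1 fit over 20 libraries, with 2931 calls over all genes against 6405. Leaving out 1 library gave between 2 and 3 calls for COLO320DM, 1 and 5 for UO-31, 5 and 6 for OVCAR-4, 1 and 3 for ABC-1, and 0 for RKO. In UO-31 the low counts came without DMSO replicate 1 or 2, when 61 and 53 genes in all were called, and in ABC-1 without G007-LK replicate 1.

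The number of members that differed from RKO, main values 2, 3, 4 and 3 in COLO320DM, UO-31, OVCAR-4 and ABC-1, was 1 in COLO320DM and 1 in UO-31 at a mean of at least 5 RPKM. It was 4 in COLO320DM and 5 in UO-31 with median ratio normalization, 5 in UO-31 with equal sums of RPKM (calls over all genes 3245, 2655 and 2412, against 1325 in COLO320DM and 728 in UO-31), 2 in OVCAR-4 with a pseudocount of 0.1 and 1 in ABC-1 with no filter. Leaving out 1 library gave 1 to 4 for COLO320DM, 1 to 5 for UO-31, 2 to 4 for OVCAR-4 and 1 to 3 for ABC-1, while calls over all genes ran between 407 and 3724 in COLO320DM and between 65 and 6294 in UO-31. The cause was not tested. The 6 members with a mean of at least 1 RPKM differed among lines under pseudocount, scaling and filter alternatives.

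Same-numbered replicates did not deviate together (correlations of -0.25 to 0.06), so the numbers name samples only. With the number as a replicate block the calls were 2 for COLO320DM, 4 for UO-31, 6 for OVCAR-4, 2 for ABC-1 and 0 for RKO. With crossed numbers, tried after the data were seen, they were 3 in COLO320DM and 3 in ABC-1.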
